A study of Homo sapiens with 16 samples.

Results

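The 9 genes described here encode enzymes that turn squalene into cholesterol: SQLE, LSS, CYP51A1, TM7SF2, SC4MOL (now named MSMO1), NSDHL, HSD17B7, EBP and DHCR7. They were chosen by symbol, and all 9 were found among the 20502 named genes of the matrix and among the 14544 genes tested. Their RNA was measured in 8 established breast cancer cell lines, each treated for 6 h with topsentinol L trisulfate (TLT), a sulfated sterol from a marine sponge, at the dose the labels call EC75, or with the vehicle DMSO, in medium with fetal bovine serum. In its protein assays of the same lines the study used a common dose near their average EC75. Whether the RNA libraries had that common dose or each line its own is not stated. The study counts MDA-MB-468, HCC70, HCC1395 and HCC1143 as basal-like. It counts MDA-MB-436, HCC38, MDA-MB-231 and MDA-MB-157 as claudin-low, a class named for low claudins and other epithelial junction genes. There were 16 libraries, 1 of each treatment per line, from lines treated separately, with no repeat within a line. The p-values for TLT against DMSO thus rest on how the change within a line varied between lines. Those for levels in DMSO rest on how the levels varied between lines.

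Cells build cholesterol from acetyl-CoA through mevalonate to squalene. Squalene is then oxidised and folded into lanosterol, and a series of enzymes of the endoplasmic reticulum removes methyl groups and moves or reduces double bonds to reach cholesterol. When sterols in that membrane run low, SCAP, the escort of the transcription factor SREBP2, comes free of the anchor protein INSIG1. SREBP2 can then raise the genes of this pathway and of cholesterol uptake, while excess sterols hold it back.

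On GRCh37, the assembly that hg19 denotes, all 9 genes are annotated as protein coding and lie apart from one another. The first enzymes of the branch are SQLE on chromosome 8 from 126010739 to 126034525, LSS on chromosome 21 from 47608055 to 47648738, CYP51A1 on chromosome 7 from 91714301 to 91764117 and TM7SF2 on chromosome 11 from 64879317 to 64883856. The C4 cycle is encoded by SC4MOL on chromosome 4 from 166248819 to 166264316, NSDHL on chromosome X from 151999511 to 152038273 and HSD17B7 on chromosome 1 from 162760492 to 162782613. The last steps are EBP on chromosome X from 48380187 to 48387104 and DHCR7 on chromosome 11 from 71139239 to 71163914. Values are summed over the exons of each gene.

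The estimated depth was 10.6 to 20.1 M reads per library. Values are upper quartile normalized, so that 1000 stands near the upper quartile of the expressed genes of a library, and they are not divided by gene length. The epithelial markers went against the label in HCC1395, a line listed as basal-like, where the values in DMSO were 14.2 for CDH1, 14.2 for EPCAM, 0 for CLDN3 and 8.09 for CLDN7. MDA-MB-231, listed as claudin-low, had 574 for CLDN4 but 0 for CDH1, 11.5 for CLDN3, 40.2 for EPCAM and 107 for CLDN7. The sum of 9 epithelial markers was 675 to 82747 in DMSO and 1034 to 144977 in TLT, with 5 of 9 called higher, and that of 5 mesenchymal markers was 923 to 139492 in DMSO and 1762 to 172286 in TLT, with 2 called higher and 1 lower. Of 6 blood cell markers, PTPRC and HBB stayed between 0 and 1.82, and 3 of the 3 tested, HBA1, CD14 and CD68, were called higher in TLT. In DMSO HBA1 ranged from 0.929 to 76.7, CD14 from 0 to 866 and CD68 from 16.2 to 2734. In TLT they ranged from 1.49 to 208, from 11.9 to 1544 and from 34.6 to 3258. Beside these marker counts, 15.04% of all genes were called higher and 10.9% lower. The part of these markers in the results was not tested.

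TLT raised most of these enzymes. In a paired fit with limma on log2(value + 1), with cell line as a term and Benjamini-Hochberg adjustment over all genes tested, 6 of the 9 were higher in TLT at an adjusted p under 0.05 (SQLE, LSS, CYP51A1, SC4MOL, EBP and DHCR7) and 0 were lower. Over all genes 15.04% were called higher and 10.9% lower. The median log2 fold change was 0.50 over the 9 genes and 0.05 over all genes tested. Of the 9, 2 (SQLE and EBP) were higher in all 8 lines, beside 9.19% of all genes.

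SQLE, squalene epoxidase, oxidises squalene in the first oxygen-dependent and a rate-limiting step of this branch. In the basal-like lines its value went from 1140.3 in DMSO to 2449 in TLT in HCC1143, from 4692 to 9505 in HCC1395, from 3480.1 to 7406 in HCC70 and from 2443 to 4859 in MDA-MB-468. In the claudin-low lines it went from 2584 to 3290.3 in HCC38, from 2814 to 2920.1 in MDA-MB-157, from 839 to 1611 in MDA-MB-231 and from 2531 to 4349 in MDA-MB-436. SQLE was higher in TLT in every line, although the ranges of both treatments overlapped because the lines differed in level. The log2 fold change was 0.79 (SE 0.11, n = 8 lines, limma adjusted p = 0.000586).

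LSS, lanosterol synthase, folds the epoxide into lanosterol, the first sterol of the pathway. Its value went from 436 to 802 in HCC1143, from 2047 to 2647 in HCC1395, from 1157 to 1471 in HCC70 and from 1867 to 2450 in MDA-MB-468. In the claudin-low lines it went from 752 to 626 in HCC38, from 2769 to 3676 in MDA-MB-157, from 2034 to 2237 in MDA-MB-231 and from 1603 to 1734 in MDA-MB-436. LSS rose less than SQLE, was lower in TLT in HCC38 only, and its ranges overlapped. The log2 fold change was 0.30 (SE 0.10, limma adjusted p = 0.0450). This call lay at the threshold. It was lost when any single line other than HCC38 was left out, with an adjusted p between 0.0106 and 0.104 over the 8 omissions.

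CYP51A1, lanosterol 14-demethylase, is the cytochrome P450 that azole drugs block in fungi. Its value went from 985 to 2056 in HCC1143, from 3196 to 6267 in HCC1395, from 2848 to 5708 in HCC70 and from 1409 to 3103 in MDA-MB-468. In the claudin-low lines it went from 1559 to 1453 in HCC38, from 2676 to 3681 in MDA-MB-157, from 2234 to 4024 in MDA-MB-231 and from 1647 to 2823 in MDA-MB-436. CYP51A1 rose by 0.97 to 1.14 on the log2 scale in each basal-like line and was lower in TLT in HCC38 only. It rose by 0.77 on the log2 scale (SE 0.12, limma adjusted p = 0.000902). Whole numbers of reads, within 0.05 reads, were found in both libraries of a line in 4 of 8 lines, so RSEM divided some of its reads with other genes.

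TM7SF2 reduces the double bond that the CYP51A1 step leaves at carbon C14. Its value went from 246 to 228 in HCC1143, from 138 to 137 in HCC1395, from 192 to 186 in HCC70 and from 353 to 216 in MDA-MB-468. In the claudin-low lines it went from 390.1 to 305 in HCC38, from 26.7 to 15.05 in MDA-MB-157, from 27.6 to 35.8 in MDA-MB-231 and from 86.8 to 74.7 in MDA-MB-436. TM7SF2 was lower in TLT in 7 of 8 lines, but the difference did not pass the test. The log2 fold change was -0.23 (SE 0.15, 95% interval -0.56 to 0.09, limma adjusted p = 0.269). In MDA-MB-157 and MDA-MB-231 it rested on an estimated 13 to 24 reads per library.

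LBR, the lamin B receptor, carries the same reductase activity in the nuclear envelope. Per kilobase of transcript, LBR stood above TM7SF2 in every library, by a median of 4.99 times in DMSO (2.30 to 42.8) and 4.77 times in TLT (2.11 to 38.3). LBR did not pass the test either, with a log2 fold change of -0.18 (SE 0.07, limma adjusted p = 0.0921) and lower values in 6 of 8 lines.

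SC4MOL, the methyl sterol oxidase now named MSMO1, starts the removal of the methyl groups at carbon C4, and it had the largest fold change of the 9 genes. Its value went from 537 to 1597 in HCC1143, from 1607 to 4590.0 in HCC1395, from 3244 to 8647 in HCC70 and from 2378 to 10282 in MDA-MB-468. In the claudin-low group it went from 928 to 1167 in HCC38, from 999 to 992 in MDA-MB-157, from 1211 to 3162 in MDA-MB-231 and from 573 to 1865 in MDA-MB-436. It rose more than 1 log2 unit in 6 lines and stayed level in MDA-MB-157. The log2 fold change was 1.25 (SE 0.19, limma adjusted p = 0.000951), or 2.38-fold. Both libraries held whole reads in 3 of 8 lines.

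NSDHL, the decarboxylating dehydrogenase of the same C4 step, went from 319 to 501 in HCC1143, from 904 to 1270.4 in HCC1395, from 1141 to 1344 in HCC70 and from 1628 to 2105 in MDA-MB-468. Its claudin-low values went from 859 to 877 in HCC38, from 650.5 to 615 in MDA-MB-157, from 431 to 548 in MDA-MB-231 and from 1122 to 1104 in MDA-MB-436. NSDHL was higher in TLT in 6 lines and lower in MDA-MB-157 and MDA-MB-436. It did not pass the test, with a log2 fold change of 0.25 (SE 0.09, 95% interval 0.05 to 0.45, limma adjusted p = 0.0612). Without MDA-MB-157 it passed, with 0.30 and an adjusted p of 0.0277 in limma, within a range of 0.0277 to 0.146 over the 8 omissions.

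HSD17B7, the keto reductase that closes the C4 cycle and that can also reduce estrone, varied most between lines in its response after SC4MOL. Its value went from 236.1 to 236.5 in HCC1143, from 207 to 385 in HCC1395, from 269 to 507 in HCC70 and from 284 to 870 in MDA-MB-468. For the claudin-low lines the values went from 329.8 to 280 in HCC38, from 201 to 208 in MDA-MB-157, from 246 to 274 in MDA-MB-231 and from 496 to 739.8 in MDA-MB-436. The change lay between -0.24 and 1.61 on the log2 scale, with an SD of 0.62. It did not pass the test, with a log2 fold change of 0.50 (SE 0.18, limma adjusted p = 0.0583). It passed without HCC38, with 0.60 and an adjusted p of 0.0304 in limma, within a range of 0.0304 to 0.148 over the 8 omissions. HSD17B7P2, a pseudogene copy named after its values were seen, had 99.9 to 271 in DMSO and 102 to 401 in TLT, and its changes followed those of HSD17B7 across the 8 lines at r = 0.96. Both genes held whole reads in both libraries in 8 of 8 lines. Their sequences were not compared, and whether reads were assigned to the right copy was not tested, so both values are uncertain.

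EBP, the sterol isomerase that moves the double bond from C8 to C7 and that also binds emopamil, went from 614 to 731 in HCC1143, from 977 to 1300 in HCC1395, from 690.4 to 940.2 in HCC70 and from 2275 to 2811 in MDA-MB-468. In claudin-low lines it went from 1285 to 1331 in HCC38, from 1993 to 2709 in MDA-MB-157, from 789 to 817 in MDA-MB-231 and from 969 to 1063 in MDA-MB-436. The rise was small but of 1 direction in all 8 lines. It rose by 0.26 on the log2 scale (SE 0.07, limma adjusted p = 0.0210). The call was lost without HCC1395, HCC70 or MDA-MB-468, with an adjusted p between 0.0174 and 0.0572 over the 8 omissions.

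DHCR7, the reductase that makes cholesterol from 7-dehydrocholesterol and whose loss causes Smith-Lemli-Opitz syndrome, went from 753 to 1673 in HCC1143, from 1709 to 2868 in HCC1395, from 2375 to 4053 in HCC70 and from 4703 to 8827 in MDA-MB-468. Among the claudin-low lines it went from 849 to 822 in HCC38, from 1253 to 1659.7 in MDA-MB-157, from 1310.3 to 1702 in MDA-MB-231 and from 737 to 1216 in MDA-MB-436. It was lower in TLT in HCC38 only, and MDA-MB-468 had the highest level under both treatments. Its log2 fold change was 0.63 (SE 0.11, limma adjusted p = 0.00198).

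**Figure D1:**
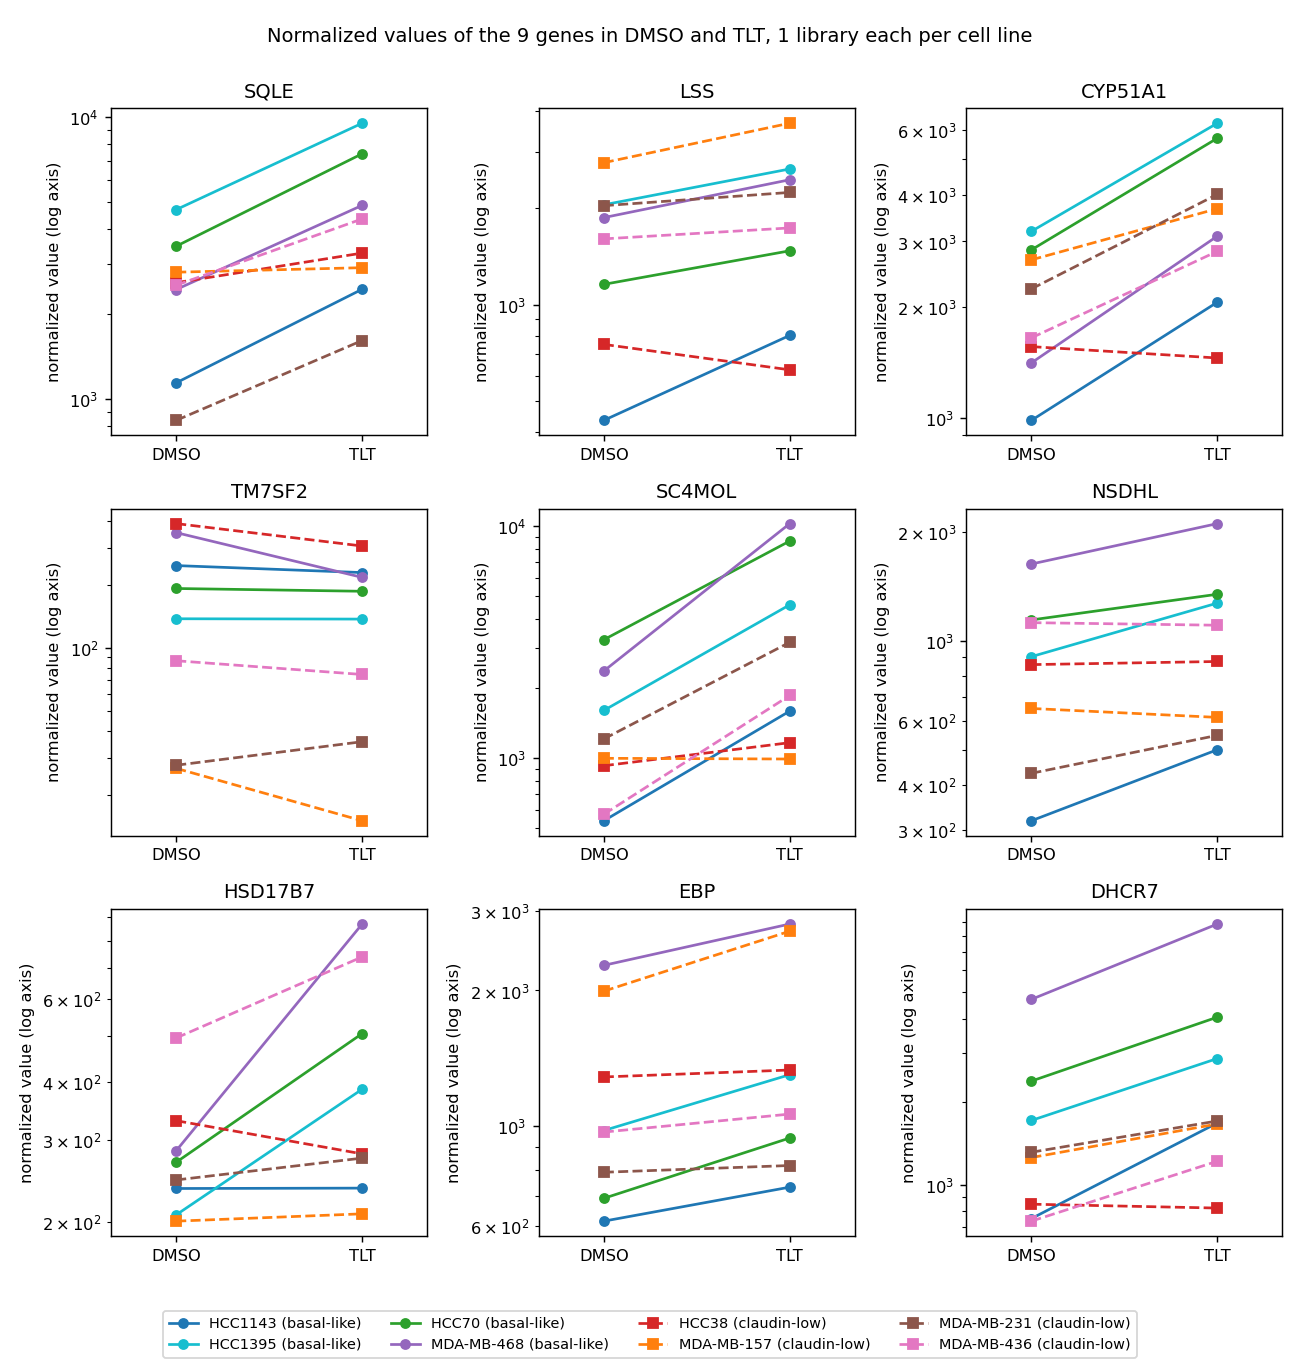
Normalized value (log axis) of each of the 9 genes in the DMSO and the TLT library of each cell line, with 1 line per cell line, solid for basal-like and dashed for claudin-low. The lines of SQLE all rise, those of SC4MOL rise steeply except in HCC38 and MDA-MB-157, and those of TM7SF2 fall except in MDA-MB-231, most in MDA-MB-157 and MDA-MB-468.

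The lane of the sequencer, given in the column headers, separated the MDA-MB lines from the HCC lines. Within the MDA-MB lines 4 of the 9 genes were called higher (SQLE, CYP51A1, SC4MOL and DHCR7) beside 4.99% of all genes, and within the HCC lines 2 (SQLE and SC4MOL) beside 0.878%, with 4 lines in each fit. The direction was the same in both lanes for every gene. For SQLE the log2 fold change was 0.69 in the MDA-MB lines and 0.89 in the HCC lines, for CYP51A1 0.81 and 0.73, for SC4MOL 1.30 and 1.21, and for DHCR7 0.60 and 0.66.

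The signed log2 change differed between enzymes of the same line. In a comparison added after the data were seen, the log2 changes of each of 36 pairs of genes were compared over the 8 lines with an exact two-sided sign-flip permutation test, adjusted over the 36 pairs, and 24 pairs differed at an adjusted p under 0.05. The change of SC4MOL was larger than that of NSDHL in 8 of 8 lines, by 1.0 (SE 0.21), and larger than that of HSD17B7 in 7 of 8, by 0.76 (SE 0.18), so the enzymes of the C4 cycle did not move by equal amounts. The exact p was 0.0078125, the smallest that 8 lines allow, for the first pair and 0.015625 for the second, with adjusted values of 0.0402 and 0.0422. The signed change of TM7SF2 lay below that of SQLE in 8 of 8 lines, by 1.02 (SE 0.12, exact permutation p = 0.0078125, adjusted 0.0402). TM7SF2 was lower in TLT in 7 lines and SQLE higher in all 8, so this difference is partly one of direction. SQLE and CYP51A1 differed by 0.02 (SE 0.09, exact permutation p = 0.758, adjusted 0.796), and a p of that size does not show that they act alike. With 1 line left out the smallest possible p is 0.015625, and 0 to 15 pairs then passed.

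The size of the response across the 9 genes differed between cell lines. The median change of the 9 genes was 0.88 in HCC1143, 0.75 in HCC1395, 0.77 in HCC70, 0.91 in MDA-MB-468, 0.58 in MDA-MB-436 and 0.36 in MDA-MB-231. It was -0.05 in HCC38 and 0.05 in MDA-MB-157, where 0 of 9 genes rose by more than 0.5 and TM7SF2 had -0.35 and -0.79. The response of MDA-MB-157 was mixed, with LSS at 0.41, CYP51A1 at 0.46, EBP at 0.44 and DHCR7 at 0.40. In that line 6 of the 9 genes were above 0, against 4 of 9 in HCC38, where the highest change was 0.35. The median change of all genes was -0.03 in HCC38 and 0.22 in MDA-MB-157, and 11.2% and 30.5% of all genes rose above 0.5 there. TM7SF2 had the lowest change of the 9 genes in 7 lines and SC4MOL the highest in 6. The changes of 2 genes correlated across lines at a median r of 0.63 over the 28 pairs without TM7SF2 (-0.02 to 0.90) and 0.15 over the 8 pairs with it (-0.35 to 0.59). These are descriptions over 8 lines, and the genes of a line share its libraries.

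**Figure D2:**
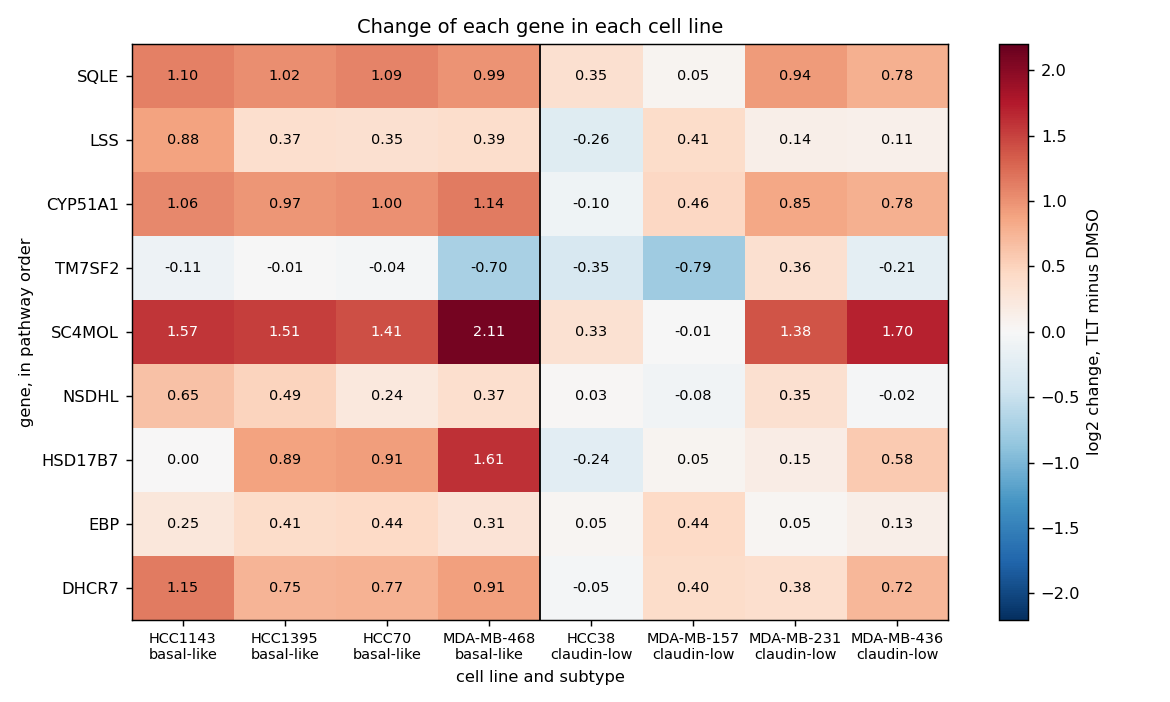
Log2 change (TLT minus DMSO) of each gene (rows, in pathway order) in each cell line (columns, basal-like left and claudin-low right of the black line), with the value in each cell and red for higher in TLT. The columns of HCC38 and MDA-MB-157 hold no value above 0.5, the lowest value of the plot is -0.79 for TM7SF2 in MDA-MB-157, and the TM7SF2 row is below 0 in all lines but MDA-MB-231.

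All 9 genes had a lower mean signed change in the claudin-low than in the basal-like lines, as did 46.45% of all genes. The difference did not pass the test for any gene. For TM7SF2 the mean was below 0 in both, -0.22 in the basal-like and -0.25 in the claudin-low lines, a difference of -0.03 (SE 0.32). SQLE changed by 1.05 on average in the basal-like lines (SD 0.05, n = 4) and by 0.53 in the claudin-low lines (SD 0.40, n = 4), a difference of -0.52 (SE 0.18). DHCR7 changed by 0.89 (SD 0.19) and 0.36 (SD 0.32), a difference of -0.53 (SE 0.18), and SC4MOL by 1.65 (SD 0.31) and 0.85 (SD 0.82), a difference of -0.80 (SE 0.33). For SQLE, CYP51A1 and DHCR7 the 4 basal-like lines all lay above the 4 claudin-low lines, as they did for 0.688% of all genes. In limma's test of the interaction, 0 of 14544 genes (0.0%) passed after adjustment, 272 had an unadjusted p under 0.05, and the adjusted p of each of the 9 genes was 0.9999. At an unadjusted p under 0.05, 7 of the 9 genes had a lower signed change in the claudin-low lines, beside 1.08% of all genes. These 7 share the same 8 lines and are not 7 separate results, and 3 to 6 of the 9 genes were under that limit when a line was left out. Lane and subtype overlap in part, since only HCC38 of the HCC lines is claudin-low and only MDA-MB-468 of the MDA-MB lines is basal-like. With lane in place of subtype, 0 of the 9 genes were called and 0 had an unadjusted p under 0.05. Lane and subtype were not fitted together.

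In DMSO no level of the 9 genes passed the test between the subtypes. Between claudin-low and basal-like lines 0.0756% of all genes were called in limma, and 0 of the 9 genes were called. At an unadjusted p under 0.05 the count was also 0 of the 9, beside 10.2% of all genes. The 11 genes called became 0 without MDA-MB-157 or without MDA-MB-436 and 221 without HCC1395. The largest difference was that of TM7SF2, -1.61 on the log2 scale (SE 0.87, limma adjusted p = 0.560), whose claudin-low lines ranged from 26.7 to 390.1. The lines differed widely within either treatment. The highest over the lowest line was 5.59 in DMSO and 5.90 in TLT for SQLE, 6.04 and 10.4 for SC4MOL, 6.38 and 10.7 for DHCR7, 2.47 and 4.18 for HSD17B7, and 14.6 and 20.3 for TM7SF2. The SD of the log2 values between lines was larger in TLT than in DMSO for 6 of the 9 genes. The gap was small for SQLE, 0.82 in DMSO and 0.84 in TLT, and larger for HSD17B7, 0.42 and 0.77. The same share over all genes was not computed, so this count is not a trait of these genes.

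Per kilobase of transcript, the median level in DMSO was 865 for EBP, 863 for SQLE, 615 for CYP51A1, 496 for SC4MOL, 488 for DHCR7, 481 for NSDHL, 355 for LSS, 168 for HSD17B7 and 104 for TM7SF2. The ranges over the 8 lines of neighbours in this order overlapped. In TLT the median was 1290 for SQLE, 1129 for SC4MOL, 1075 for CYP51A1 and 1050 for EBP, and TM7SF2 stayed lowest at 102.

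Most enzymes before squalene rose as well. Of 8 enzymes from acetyl-CoA to squalene that are reported, 7 were called higher and 0 lower, with a median log2 fold change of 0.49. Over all genes 15.04% were called higher and 10.9% lower, which also stands beside the lists that follow. The synthase HMGCS1 rose by 1.32 (SE 0.16) and the isomerase IDI1 by 1.11 (SE 0.10), the thiolase ACAT2 by 0.46 (SE 0.07) and the squalene synthase FDFT1 by 0.58 (SE 0.09), all higher in 8 of 8 lines, while the kinase PMVK had 0.14 (SE 0.09, limma adjusted p = 0.298). Of 3 other genes of the steps after squalene, LBR included, 1 was called higher: SC5DL, the C5 desaturase, by 0.79 (SE 0.12). C14orf1 had 0.13 (SE 0.08, limma adjusted p = 0.255).

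Of 11 SREBP regulators and uptake genes, 3 were called higher and 0 lower, beside 15.04% and 10.9% of all genes. Counts as small as those of the lists in this paragraph do not show that a list differs from all genes. INSIG1 rose by 1.39 (SE 0.21), the lysosomal cholesterol exporter NPC1 by 0.48 (SE 0.07) and SREBF2, the gene of SREBP2, by 0.35 (SE 0.07), each in 8 of 8 lines. SREBF1 had 0.01 (SE 0.09) and SCAP -0.02 (SE 0.09). Of 5 tested genes of sterol efflux and LXR, the receptor that senses excess sterol, 0 were called in limma, and 0 had an unadjusted p under 0.05. Of all 14544 genes tested, 5744 were under that limit. NR1H3, an LXR gene, had 0.04 (SE 0.19), and the exporter ABCG1 had -0.11 (SE 0.38). Larger changes that did not pass were those of ABCA1, -0.50 (SE 0.23, lower in 7 of 8 lines), and MYLIP, 0.34 (SE 0.16, higher in 6 of 8). Of 6 ubiquitin ligases and partners of sterol-controlled protein decay, the conjugating enzyme UBE2G2 rose by 0.46 (SE 0.09) and FAF2 by 0.20 (SE 0.07), while UBE2J2 had 0.01 (SE 0.08) and RNF139 0.12 (SE 0.14).

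**Figure D3:**
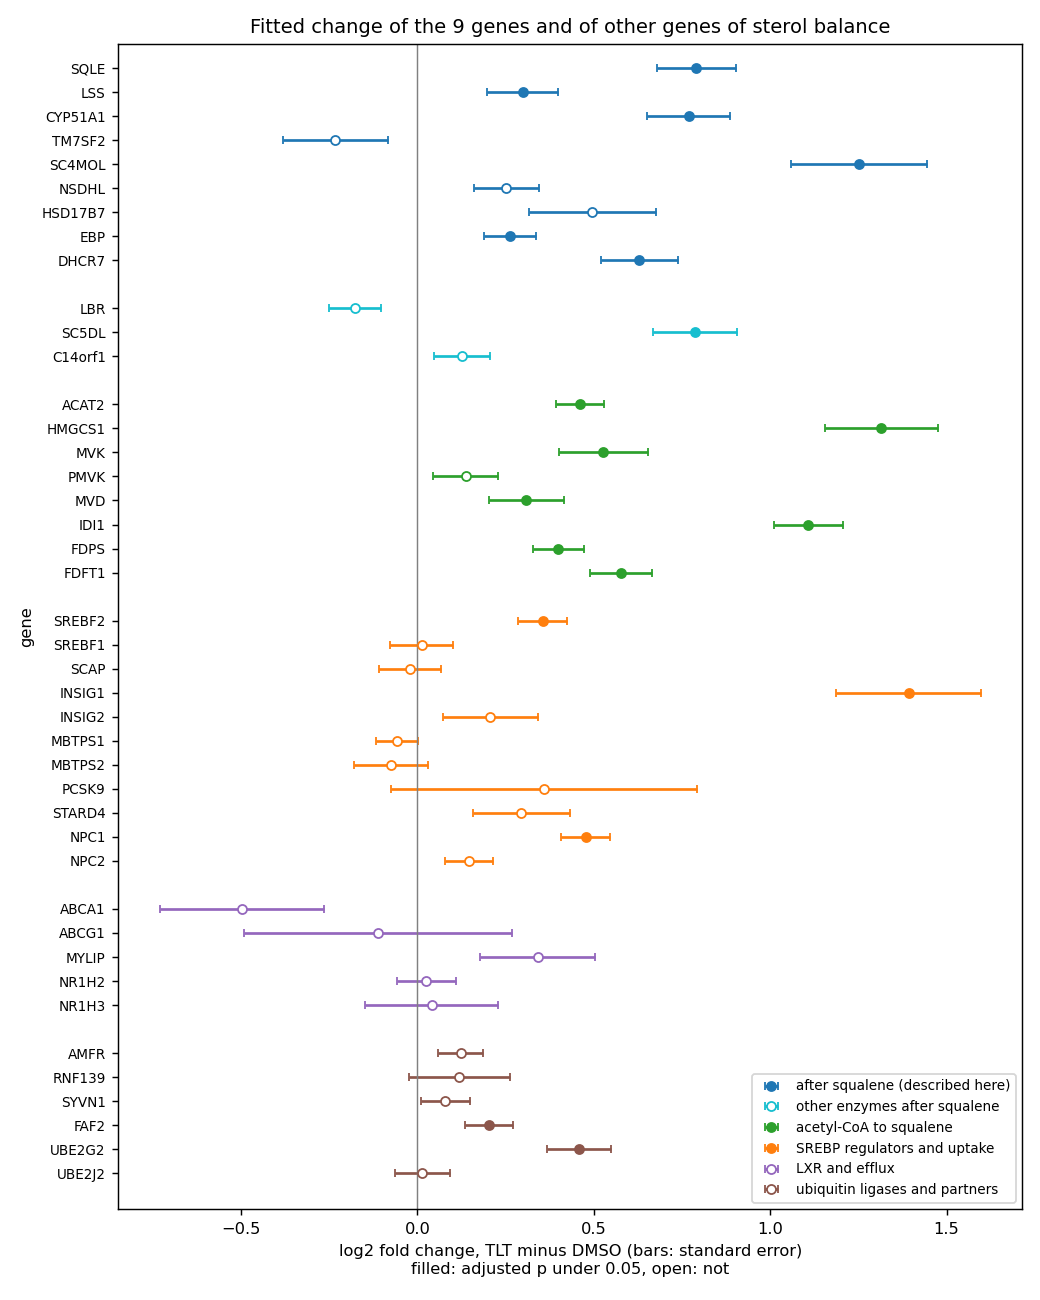
Log2 fold change of TLT against DMSO with its standard error for the 9 genes (top) and other genes of sterol balance by group. Filled points passed the test at an adjusted p under 0.05, and the open points include TM7SF2, NSDHL and HSD17B7 of the 9 genes.

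The genes whose log2 values ran most like the mean of the 9 genes over all 16 libraries were TP53I11 (r = 0.88), ZCCHC14 (0.87), MTUS2 (0.87), AKR1C2 (0.86) and ACSL1 (0.86). These values describe differences between lines as well as between treatments.

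Promoter sequence is shown for 4 genes that responded differently, from the strongest riser to the gene that did not rise. RefSeq windows on GRCh38.p14, from 250 bases before to 50 bases after a transcription start, were matched for 8 of the 9 genes, with 2 starts for DHCR7. The 250 bases before the start are printed 5′ to 3′ on the strand of the gene, and capitals mark exact matches, on either strand, of the CCAAT box (CCAAT) and the GC box (GGGCGG). The window of SC4MOL lies on chromosome 4 from 165327419 to 165327668 on the plus strand, that of CYP51A1 on chromosome 7 from 92134478 to 92134727 on the minus strand, that of NSDHL on chromosome X from 152830813 to 152831062 on the plus strand, and that of TM7SF2 on chromosome 11 from 65111622 to 65111871 on the plus strand.
SC4MOL: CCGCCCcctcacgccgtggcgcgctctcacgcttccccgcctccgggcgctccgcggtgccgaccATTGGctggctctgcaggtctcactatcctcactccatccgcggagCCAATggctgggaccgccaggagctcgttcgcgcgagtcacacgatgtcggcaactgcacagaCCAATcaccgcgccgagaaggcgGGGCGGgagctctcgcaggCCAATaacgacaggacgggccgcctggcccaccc
CYP51A1: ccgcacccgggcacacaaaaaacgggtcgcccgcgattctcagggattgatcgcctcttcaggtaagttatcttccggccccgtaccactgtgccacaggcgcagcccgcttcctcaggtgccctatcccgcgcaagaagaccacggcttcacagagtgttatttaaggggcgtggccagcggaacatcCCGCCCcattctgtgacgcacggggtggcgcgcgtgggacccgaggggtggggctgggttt
NSDHL: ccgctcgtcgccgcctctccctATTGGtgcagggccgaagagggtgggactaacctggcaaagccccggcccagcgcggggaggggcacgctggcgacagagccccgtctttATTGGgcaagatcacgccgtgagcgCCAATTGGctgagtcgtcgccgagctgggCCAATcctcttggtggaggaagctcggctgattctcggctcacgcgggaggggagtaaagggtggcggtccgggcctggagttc
TM7SF2: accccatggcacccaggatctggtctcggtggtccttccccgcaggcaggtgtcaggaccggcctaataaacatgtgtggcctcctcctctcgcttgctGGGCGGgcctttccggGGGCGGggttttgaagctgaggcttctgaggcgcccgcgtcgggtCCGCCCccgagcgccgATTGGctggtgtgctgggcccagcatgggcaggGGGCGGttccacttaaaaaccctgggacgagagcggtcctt

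The sterol regulatory element that SREBP binds, TCACNCCAC, was found in 0 of the 8 genes, beside 1.39% of all 27305 genes with windows of the same length, and the looser TCACNNCAC in 0 of 8, beside 4.30%. This says only that these letters are not in these windows. CCAAT was found in 7 of 8 genes beside 39.7% of all genes, the GC box GGGCGG in 7 of 8 beside 48.3%, and the E-box CACGTG in 1 of 8 beside 8.77%. All 3 were searched on both strands. In SC4MOL 4 CCAAT matches and 2 GC boxes were found, in NSDHL 5 CCAAT matches, of which a pair overlaps, and no GC box, in CYP51A1 only 1 GC box, and in TM7SF2 1 CCAAT match and 4 GC boxes. Whether these matches bear on the change of a gene was not tested.

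**Figure D4:**
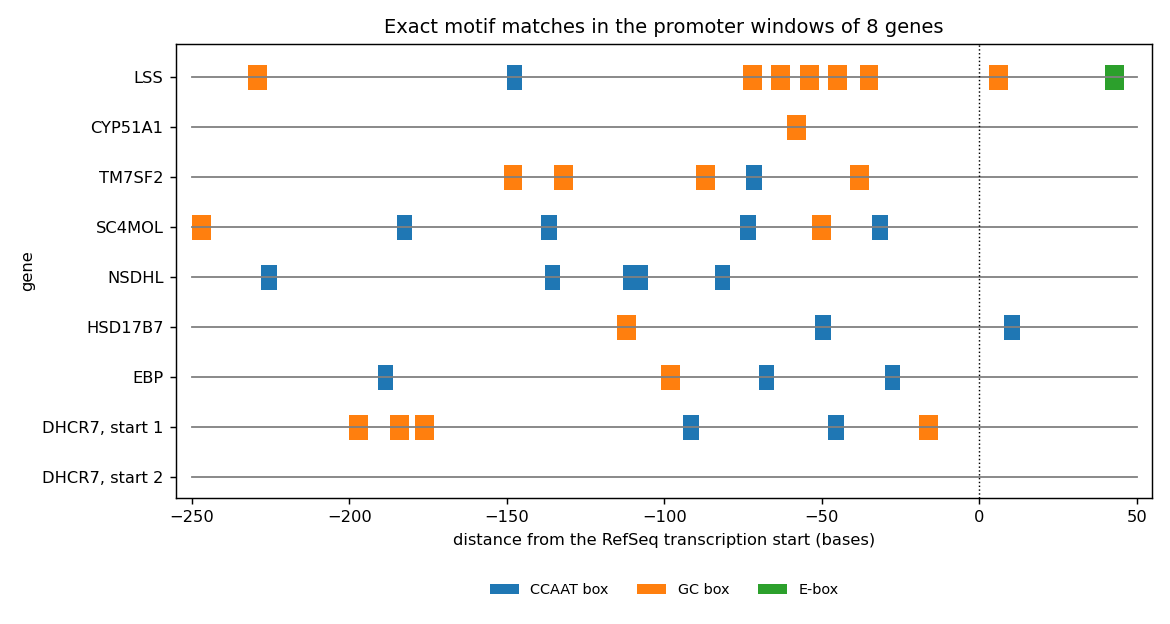
Exact matches of the CCAAT box, the GC box and the E-box in the promoter windows of 8 genes, by distance in bases from the RefSeq transcription start (dotted line). SC4MOL has 4 CCAAT matches, NSDHL has 5, and the second DHCR7 start has none of these matches.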

How the data were processed

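RNA was profiled by poly(A)-selected sequencing of 16 libraries. The authors used MapSplice to align reads to hg19 and RSEM to estimate gene values, which they deposited as an upper quartile normalized signal. The submitters' processing notes also name DESeq2 1.4.5, and the authors' deposited fold changes per line were not used. Both deposited matrices were identical over 20474 shared genes. Of 20531 rows, 29 without a gene name (0.0398% of the signal) were left out, and 26 had names turned into dates, so the list gene MARCH6 was not analysed here.

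Depth was estimated from the value of 1 read, chosen so that most values of a library were whole reads. Of values under 60, 83.1% to 84.9% were whole within 0.01 reads, so no count test was run. Genes with a mean of at least 10 were kept, and log2(value + 1) was fitted in limma 3.58.1 (R 4.3.3, trend and robust) with cell line and treatment, at an adjusted p of 0.05. Fold changes are on that scale and understate changes of low genes. The labels name the line of each library, and within each line the DMSO and TLT deviations from the group means had r of 0.900 to 0.954. The subtype difference was fitted as an interaction. The fit was tested on simulated data. Exact tests used Python 3.11.15.

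The 9 genes, the lists and the tests were chosen with earlier results of these data known. Named genes were all 9, up to 4 called genes of smallest p and up to 2 uncalled genes of largest p from each other list, and the 5 genes most correlated with the mean of the 9. LBR, HSD17B7P2, ABCA1 and MYLIP were named in addition. Alternatives were another scaling, filter, pseudocount, threshold and moderation, single lanes, lane in place of subtype, no block and each line left out. A further fit left out MDA-MB-157 and HCC70 together. Another fit, without MDA-MB-157 and HCC38, was run and seen but is not reported, since it selects lines by their outcome. Some genes of the lists are not reported here and were left out of the list counts. Protein sequences were not analysed here.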

Additional observations from a re-analysis of the deposited data

How the results depend on the processing

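The direction of each of the 9 log2 fold changes was kept under all alternatives reported. The filter, threshold, moderation and missing block leave a fold change as it is, so they say nothing on direction. The count of the 9 genes called higher was 6, and it was 4 to 7 with 1 line left out, 4 in the MDA-MB lines, 2 in the HCC lines, 4 at an adjusted p under 0.01 and 5 or 6 under the other alternatives that kept the pairing by line. The count over all genes took higher and lower genes together and was 3774, of which 2188 were higher. It was 2421 to 3898 with 1 line left out (2421 without MDA-MB-436) and 1564 at an adjusted p under 0.01. In the MDA-MB lines it was 1377 (723 higher) and in the HCC lines 170 (124 higher). Single lanes hold 8 of the 16 libraries. Without the replicate block, which leaves the differences between lines in the error, 0 of the 9 genes and 7 of all genes were called, and 0 genes were called in each of the 5 other lists of sterol genes. Called genes of the ubiquitin ligase list numbered 1 to 2 with 1 line left out. The subtype difference called 0 of the 9 genes under each alternative, and that of TM7SF2 changed sign, from -0.03 to 0.00706 with a pseudocount of 10 and to between -0.24 and 0.15 with 1 line left out. Pairs of genes with different changes fell from 24 to 0 to 15 with 1 line left out, since 7 lines allow no smaller p than 0.015625. The spread between lines was larger in TLT for 5 to 8 genes with 1 line left out. The second deposited matrix gave no separate check, since its values are the same. TM7SF2, at 13 to 24 reads per library in 2 lines, is the gene that depth limits most.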
